A study of Mus musculus with 8 samples.

Results

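Voltage-gated and ligand-gated ion channel genes were compared between endothelial cells (ECs) of mutant and wild-type mouse brains. They were taken by gene symbol, as the genes whose names begin with Kcn (potassium channels), Cacn (calcium), Scn (sodium), Hcn (hyperpolarization-activated), Grin, Gria or Grik (glutamate receptors), Gabr (GABA-A receptors), Chrn (nicotinic receptors), P2rx (ATP-gated), Clcn (ClC chloride channels and exchangers) or Ano (anoctamins). *Kcne3* was left out of the selection. Of the 16889 genes in the authors' normalized set, 136 were selected, 135 of them protein coding and 1, *Kcnq1ot1*, a non-coding transcript that is no channel. A further 85 genes of the same names lay outside that set, with at most 77 reads each over all 8 libraries, against at least 81 for the genes kept. Those 85 included 15 of the 19 GABA-A receptor genes and 12 of the 16 nicotinic receptor genes.

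The mutant pups were R26 GT-Map2k1-GFP/+; Tg-Cdh5CreER+/-, in which tamoxifen given at postnatal day 1 (P1) frees the expression of MAP2K1 K57N, an activated form of the kinase that phosphorylates ERK, from the *Rosa* locus in cells that express the Cdh5 (VE-cadherin) promoter. The controls were wild-type pups, matched in number to the mutants within each injected litter, and brain ECs of both were captured at P9 with beads against CD31. Each of the 4 mutant and 4 wild-type libraries came from 1 pup. Recombination is mosaic in this line and the controls carry no unmutated *Map2k1* transgene, so a mutant library mixes ECs with and without the active allele.

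Voltage-gated channels open when the membrane potential changes, and ligand-gated channels when a transmitter such as glutamate, GABA, acetylcholine or ATP binds. ECs are not excitable, and their potential is set largely by potassium channels, in brain capillaries by the inward rectifier encoded by *Kcnj2*. A more negative potential draws calcium into the EC and, through gap junctions, relaxes the smooth muscle of upstream arterioles. Most sodium, glutamate and GABA-A channel genes are known from neurons.

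*Map2k1* checks the labels. It had 18687, 12660, 12675 and 14306 normalized counts (reads scaled by the TMM method of edgeR) in mutant libraries 1 to 4 and 1636, 1758, 1532 and 1502 in the wild-type ones, a rise of 3.18 on the log2 scale (SE 0.13, adjusted p = 2.84e-07, quasi-likelihood test of edgeR, p adjusted after Benjamini and Hochberg). Reads from the transgene and the endogenous gene are counted together. Gene positions are given on GRCm38, as deposited. Genes are said to rise or fall where this adjusted p was under 0.05. Libraries held 24833373 to 34196955 counts. Levels in RPKM are reads per kilobase of exon, scaled to the library's total as adjusted by TMM. The 10 EC markers summed to 2541 to 3108 RPKM in mutant and 3001 to 3843 in wild-type libraries, and 2 of them rose and 4 fell. The 15 neuron markers summed to 9.14 to 16.1 and 10.7 to 31.2, with the highest sums in wild-type libraries 1 (21.0) and 3 (31.2), and of the 13 tested 2 rose and 7 fell. The 8 oligodendrocyte lineage markers summed to 8.48 to 15.0 and 19.7 to 49.2, and 7 of the 8 fell. Astrocyte markers summed to 3.63 to 9.40 and 4.42 to 8.30 (2 of 8 fell), smooth muscle markers to 49.6 to 141 and 66.2 to 146 (1 of 6 rose), and red blood cell markers to 109 to 358 and 668 to 1161 (5 of 5 fell). No marker was at 0 in all libraries. In whole-library RNA, fewer cells of a type and less RNA per cell cannot be told apart.

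Promoters are shown for 4 channel genes, the one of highest level (*Kcnj2*), the only differentially expressed one with a searched motif (*P2rx7*), and examples of a large rise (*Kcnf1*) and a large fall (*Hcn2*). The windows run from 250 bases before to 50 bases after the annotated start (RefSeq, GRCm38.p6) and were searched on both strands for an ETS core (CCGGAAGT), an AP-1 site (TGANTCA) and a CRE (TGACGTCA), letters bound by factors that ERK signalling is known to act on. Capitals mark a match. They lie at chr11:111065914-111066213 (plus strand), chr5:122643677-122643976 (plus strand, the first of 2 windows of the gene), chr12:17176839-17177138 (minus strand) and chr10:79716384-79716683 (plus strand).
Kcnj2: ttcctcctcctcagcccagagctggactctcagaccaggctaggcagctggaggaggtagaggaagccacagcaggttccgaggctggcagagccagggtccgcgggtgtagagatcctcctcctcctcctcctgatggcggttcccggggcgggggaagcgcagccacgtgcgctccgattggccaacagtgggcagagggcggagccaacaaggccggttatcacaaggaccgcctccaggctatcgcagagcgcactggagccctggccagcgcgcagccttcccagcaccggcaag
P2rx7: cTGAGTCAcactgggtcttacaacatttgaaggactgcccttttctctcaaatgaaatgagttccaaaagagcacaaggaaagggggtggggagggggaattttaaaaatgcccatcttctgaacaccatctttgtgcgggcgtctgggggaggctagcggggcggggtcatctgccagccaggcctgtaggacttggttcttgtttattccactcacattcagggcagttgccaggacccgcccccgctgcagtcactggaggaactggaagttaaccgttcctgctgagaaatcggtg
Kcnf1: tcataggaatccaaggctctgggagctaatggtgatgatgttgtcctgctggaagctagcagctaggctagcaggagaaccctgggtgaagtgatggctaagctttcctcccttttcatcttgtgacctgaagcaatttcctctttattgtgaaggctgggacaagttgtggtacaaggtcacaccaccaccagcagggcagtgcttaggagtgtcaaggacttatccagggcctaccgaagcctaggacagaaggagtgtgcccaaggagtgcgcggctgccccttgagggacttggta
Hcn2: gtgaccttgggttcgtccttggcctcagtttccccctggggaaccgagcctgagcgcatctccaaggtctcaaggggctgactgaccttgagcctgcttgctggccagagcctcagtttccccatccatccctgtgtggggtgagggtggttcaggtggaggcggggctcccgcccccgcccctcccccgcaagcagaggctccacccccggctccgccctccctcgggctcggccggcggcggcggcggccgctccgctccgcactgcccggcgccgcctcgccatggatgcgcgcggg
The *P2rx7* window printed holds an AP-1 match from its base 2, and the other 3 hold none of the motifs. The second *P2rx7* window, not printed, holds none either. GC content was 66.7%, 53.3%, 53.0% and 72.3%, with 18, 8, 3 and 26 CG dinucleotides. Over all 32851 windows, 3.89% held the ETS core, 7.81% the AP-1 site and 1.79% the CRE. The AP-1 site was in 1 of the 11 windows of genes differentially expressed upward and 0 of the 18 of those downward. Windows were matched for 98 of the 136 genes, for 10 of the 16 that were differentially expressed upward, where only *P2rx7* held any of the 3 motifs, and for 16 of the 23 downward, where none did. These are matches of letters and say nothing of binding.

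Most channel genes were scarce, and a few were not. Mean RPKM over the 8 libraries reached 1 for 39 genes. In wild-type ECs the order from the top was *Ano6* (32.9 ± 2.92 RPKM, SD, n = 4), *Kcnj2* (29.1 ± 4.67), *Clcn4* (12.6 ± 0.399), *Kcnq1* (12.3 ± 1.43) and *Hcn2* (11.8 ± 2.23). The ranges of *Clcn4*, *Kcnq1* and *Hcn2* overlapped, as did those of *Ano6* and *Kcnj2*. In mutant ECs *Kcnj2* (53.3 ± 7.23) was first and *Ano6* (35.1 ± 1.47) next, without overlap between their ranges, and *Hcn2* moved from rank 5 to rank 27 of the channel genes.

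**Figure D1:**
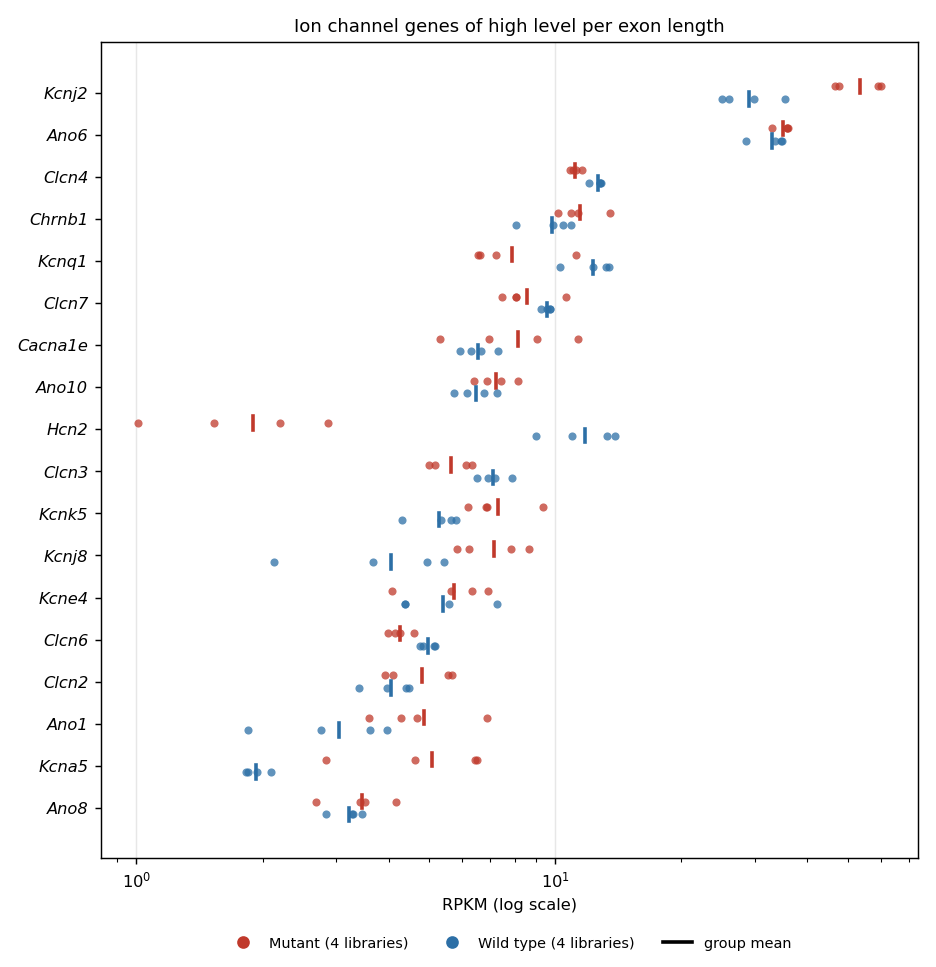
RPKM (log scale) of 18 channel genes of high mean level, with 1 point per library and a bar at the mean of each group of 4. *Kcnj2* sits to the right in the mutant libraries and *Hcn2* to the left, while *Ano6* has a mean of 35.1 in mutant and 32.9 in wild-type ECs.

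A total of 127 channel genes had enough reads to be tested. The p was adjusted over all 16887 genes tested, and a gene that rose or fell was differentially expressed (DE) when its log2 fold change also exceeded 1 in either direction. Of the 127, 26 rose and 35 fell, and 66 did neither. Over all genes tested, 44.4% passed, as 21.5% rose and 22.9% fell. DE genes numbered 16 upward and 23 downward, against 5.9% and 8.05% of all genes. No overlap between the groups was seen for 24 genes higher in the mutant and 28 lower (20.6% and 21.9% of all genes). The median log2 fold change was -0.28 over the channel genes and -0.02 over all genes. The other 9 had too few reads to test (*Cacng2*, *Gabra3*, *Grik4*, *Grin2b*, *Kcna1*, *Kcnb2*, *Kcnh3*, *Kcnh4* and *Kcnj3*).

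Rises and falls were counted by level and by library. Among the 39 genes at an RPKM of 1 or more, 6 were DE upward and 3 downward, and among the 88 tested genes under 1 the numbers were 10 and 20. Of the 23 DE downward, 17 were highest in wild-type library 3, the one with the largest neuron marker sum, and 11 varied more than 3-fold among the wild-type libraries. Library 3 also had the highest wild-type sum of astrocyte, smooth muscle, microglia and macrophage, and choroid plexus markers. It did not for EC, oligodendrocyte lineage, pericyte and red blood cell markers. These counts by level and by library were not made over all genes, so they cannot be read as particular to channel genes. Without wild-type libraries 1 and 3, an alternative added after the data were seen, 11 of the 23 remained DE downward and 15 of the 16 DE upward. With fewer controls the test has less power. A higher adjusted p here, or a call lost, does not by itself show that a change depends on these libraries. Over all genes, the number DE downward went from 1360 to 958 and upward from 996 to 1009 under the same alternative. These are totals that include newly called genes, not counts of genes that remained DE, so the 2 measures cannot be compared directly. The part of neurons or of any other of these cell types in the falls was not tested.

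**Figure D2:**
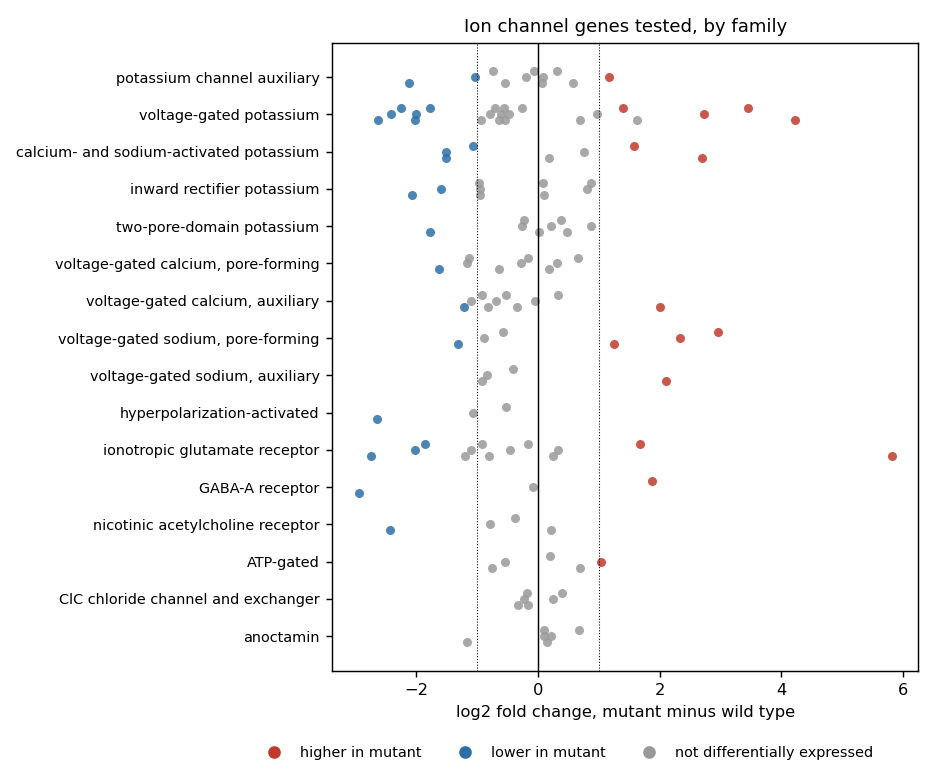
Log2 fold change (mutant minus wild type) of each protein-coding channel gene tested, 1 point per gene, by family. Red and blue points are DE, dotted lines mark a log2 fold change of 1 in either direction, and grey points failed the adjusted p or the fold limit; *Grin2a* lies farthest to the right at 5.81.

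Potassium channel genes were the largest group. Of 62 genes with auxiliary subunits, 57 were tested, 14 rose and 17 fell (24.6% and 29.8%, against 21.5% and 22.9% of all genes). Summed over pore-forming subunits, their level was 123 ± 16.3 RPKM in mutant and 76.8 ± 4.997 in wild-type libraries (n = 4 each), with ranges of 109 to 144 and 71.1 to 82.8. *Kcnj2* gave 43.5% ± 2.08 of the mutant sum and 37.8% ± 4.88 of the wild-type one. The share of *Kcnq1* was 6.37% ± 1.11 and 16.1% ± 2.77. *Kcnj2* thus gave the largest share of potassium channel RNA in every library.

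Inward rectifiers pass potassium more easily into the cell than out of it. *Kcnj2* (ENSMUSG00000041695, chr11:111066164-111076821, plus strand) had 9680, 9530, 7663 and 7521 normalized counts in the mutant and 4043, 4194, 4815 and 5701 in the wild-type libraries. The lowest mutant library exceeded the highest control, a rise of 0.87 (log2; SE 0.13, adjusted p = 3.87e-04), short of the fold limit. *Kcnj8*, the pore of the vascular ATP-sensitive channel, had 652, 469, 592 and 438 counts against 277, 410, 373 and 161. It rose by 0.81 (SE 0.25, adjusted p = 0.0242), with no overlap between the groups. *Kcnj8* is also a pericyte gene. The pericyte marker list spanned 163 to 283 RPKM in mutant and 156 to 286 in wild-type libraries, and of its 7 genes only *Abcc9*, which encodes the partner subunit of *Kcnj8*, rose (1.78). The part of pericyte RNA in the rise of *Kcnj8* was not tested. *Kcnj10*, the channel of astrocytes and oligodendrocytes, had 13.9, 28.7, 46.4 and 36.5 counts against 122, 111, 114 and 33.7. It fell by 1.59 (adjusted p = 0.0123), wild-type library 4 lying among the mutant ones, and without wild-type libraries 1 and 3 the difference was -1.17 with adjusted p = 0.128. The part of the oligodendrocyte lineage and astrocyte markers in this fall was not tested. *Kcnj13*, known from the choroid plexus, fell by 2.06 and *Kcnj14* fell by 0.96. *Kcnj16*, whose gene lies 38.2 kb from *Kcnj2* on chromosome 11, had a log2 fold change of -0.95 (adjusted p = 0.0844).

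Voltage-gated potassium channel genes moved both ways, with 6 of 22 higher and 8 lower (27.3% and 36.4%, against 21.5% and 22.9% of all genes). *Kcnf1* (ENSMUSG00000051726, chr12:17172100-17176888, minus strand) encodes a subunit that forms no channel alone but modifies those of other subunits, *Kcnb2* among them. It had 505, 319, 127 and 213 counts in mutant and 21.1, 9.38, 19 and 11.6 in wild-type libraries. Every mutant library was higher, and the rise was 4.23 (18.7-fold; SE 0.45, adjusted p = 6.15e-05). *Kcnb2* had too few reads to test and was at 0 in 3 mutant libraries. *Kcnh1*, the ether-a-go-go channel, had 193, 120, 162 and 165 counts against 4.59, 6.56, 34.5 and 11.6 and rose by 3.45 (SE 0.49, adjusted p = 3.05e-04). *Kcna5*, a fast atrial and vascular channel, had 551, 544, 391 and 240 against 154, 164, 156 and 178, a rise of 1.40 (SE 0.23, adjusted p = 8.62e-04). Here mutant library 4 was the lowest of the mutants and still above all the controls. *Kcnd1*, of the A-type channels, rose by 0.97 and *Kcng2*, another modifier subunit, by 0.69.

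The falls in this family were mostly of neuronal channels at low counts. *Kcnq3*, of the M-current of neurons, had 5.05, 5.51, 5.53 and 15.6 counts against 27.6, 16.9, 54.3 and 13.7 and fell by 1.77 (adjusted p = 0.0214). The groups overlapped, and without wild-type libraries 1 and 3 the log2 fold change was -0.86 with adjusted p = 0.275. *Kcnd3* had 8.84, 6.62, 16.6 and 8.68 counts against 35.8, 32.8, 103 and 47.3, and *Kcnd2* fell by 2.02. Both encode A-type channels, and *Kcnd3*, which fell by 2.42 (adjusted p = 0.00166), did not overlap between the groups. *Kcnc1*, of fast-spiking neurons, had 5.05 to 18.2 against 26.3 to 88.0 counts and fell by 2.24 (adjusted p = 0.00416), but had adjusted p = 0.0701 without wild-type libraries 1 and 3. *Kcna2*, of axons, fell by 2.00.

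Some falls did not follow that pattern of libraries. *Kcna6*, a channel of the same subfamily as *Kcna5*, had 287, 274, 209 and 191 counts against 445, 499, 417 and 472. The wild-type libraries were close to each other and all higher, and it fell by 0.94 (SE 0.14, adjusted p = 5.37e-04). The part of other cell types in its fall was not tested. *Kcnq1*, which forms a slow cardiac and epithelial current, had 1355, 800, 791 and 873 against 1599, 1627, 1246 and 1487 and fell by 0.64 (SE 0.17, adjusted p = 0.0107) with mutant library 1 above wild-type library 3. *Kcnq1ot1* overlaps *Kcnq1* on the opposite strand, and since the use of strand in counting is not stated, their reads may mix. It had 386, 369, 504 and 465 counts against 311, 337, 348 and 426 (0.28, adjusted p = 0.121).

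Calcium- and sodium-activated potassium channels also moved both ways. The small- and intermediate-conductance channels *Kcnn3* and *Kcnn4* are opened by calcium and start the hyperpolarization of arterial ECs that relaxes smooth muscle. *Kcnn4* (ENSMUSG00000054342, chr7:24370263-24386690, plus strand) had 68.2, 78.3, 117 and 72.9 counts in mutant and 274, 225, 184 and 276 in wild-type libraries and fell by 1.51 (SE 0.21, adjusted p = 2.76e-04). *Kcnn3* had 45.5, 32.0, 55.3 and 35.6 against 83.6, 91.9, 90.6 and 87.3 and fell by 1.07 (SE 0.21, adjusted p = 0.00196). Neither overlapped between the groups, wild-type library 3 stood out upward in neither, and without wild-type libraries 1 and 3 the log2 fold changes were -1.55 and -1.07. The part of other cell types in either fall was not tested. *Kcnn2*, a related neuronal channel, fell by 1.51. *Kcnt1*, opened by intracellular sodium, had 148, 196, 178 and 122 counts against 21.1, 24.4, 37.1 and 15.8, all mutants being higher, and rose by 2.69 (SE 0.27, adjusted p = 4.18e-05). Its relative *Kcnt2* rose by 0.75. *Kcnma1*, the large-conductance channel of smooth muscle and neurons, had 102, 60.7, 34.3 and 79.9 against 20.2, 26.3, 25.9 and 19.99 and rose by 1.58 (SE 0.32, adjusted p = 0.0029). Of its auxiliary subunits, *Kcnmb3* rose by 1.17, while *Kcnmb1* (0.58, adjusted p = 0.163) and *Kcnmb4* (-0.06, adjusted p = 0.895) did not pass.

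Tandem-pore (K2P) channels carry background potassium current. *Kcnk5*, the family's most abundant gene, had 616, 683, 681 and 933 counts against 430, 531, 576 and 563, with no overlap and a rise of 0.47 (SE 0.14, adjusted p = 0.0205). *Kcnk6* rose by 0.87. *Kcnk1*, found in neurons and astrocytes, had 10.1, 18.8, 55.3 and 20.8 against 91.0, 59.1, 172 and 35.8, so that mutant library 3 lay among the controls. It fell by 1.76 (adjusted p = 0.0257), but fell by 0.83 without wild-type libraries 1 and 3 (adjusted p = 0.309). The stretch-sensitive *Kcnk2* had 30.9 to 37.3 against 23.1 to 61.2 (log2 fold change -0.26, adjusted p = 0.494). *Kcnk13*, known from microglia, was the most uneven gene of the family. It had 26.5, 33.1, 160 and 196 counts in mutant and 34.9, 27.2, 223 and 75.7 in wild-type libraries, while the microglia and macrophage markers summed to 44.0, 56.8, 145 and 104 and to 62.1, 80.1, 177 and 56.9 RPKM. The part of those cells in the spread of *Kcnk13* was not tested.

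Among auxiliary potassium subunits, *Kcne4*, the most abundant, had 445, 543, 497 and 320 counts against 344, 440, 572 and 344 (0.08, adjusted p = 0.756). *Kcnab3* fell by 1.03. *Kcne2*, known from stomach and choroid plexus, had 7.58, 2.21, 25.4 and 5.21 against 28.5, 33.8, 94.0 and 16.8 and fell by 2.11 (adjusted p = 0.0309). As with *Kcnj13* (3.79, 3.31, 18.8 and 6.95 against 22.1, 31.9, 71.6 and 12.6), the highest library of each group was number 3. *Ttr*, the leading transcript of the choroid plexus, had 1454, 1883, 6133 and 2264 counts against 5318, 6168, 17289 and 2986, also highest in library 3 of each group, and these libraries share a label prefix. *Ttr* itself did not pass (-1.44, adjusted p = 0.0611). Markers of that epithelium were chosen after these values were seen. Of the 6, 1 rose (*Clic6*, 2.98) and 2 fell (*Folr1*, -1.61, and *Enpp2*, -0.78). The part of choroid plexus RNA in the falls of *Kcne2* and *Kcnj13* was not tested.

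**Figure D3:**
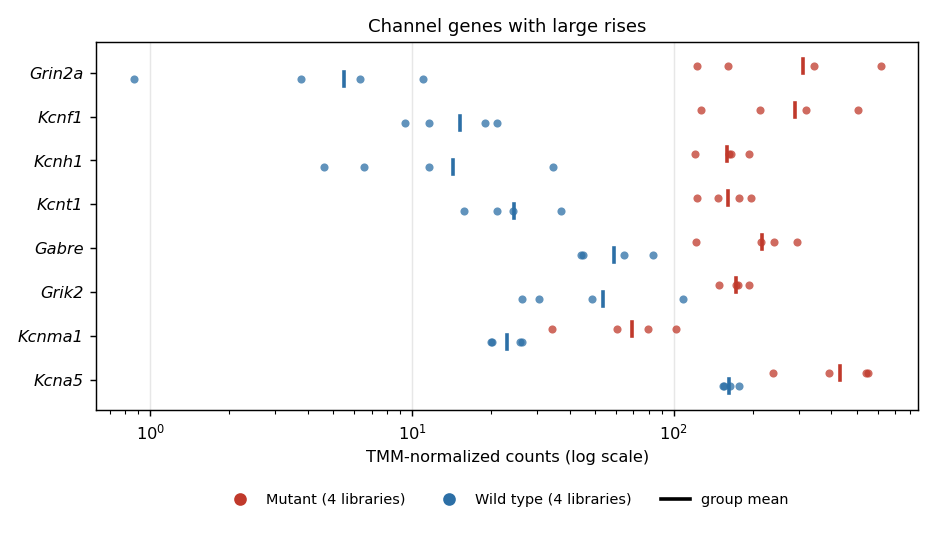
TMM-normalized counts (log scale) of 8 channel genes with large rises among DE genes that averaged at least 50 counts in the mutant, 1 point per library and a bar at each group mean. Red (mutant) and blue (wild type) points are apart for all 8 genes, by the widest distance for *Grin2a*, which had at most 11 counts in a wild-type library.

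Voltage-gated calcium channels admit the calcium that drives transmitter release and contraction. The pore-forming genes numbered 9, and all were tested, with 2 falls (22.2%, against 22.9% of all genes) and no rise. *Cacna1a* (ENSMUSG00000034656, chr8:84388440-84640246, plus strand), the P/Q-type pore of nerve terminals, had 179, 448, 447 and 348 counts against 1102, 1322, 983 and 982. All mutant libraries were lower and wild-type library 3 was not the highest control, and it fell by 1.62 (SE 0.24, adjusted p = 4.2e-04). It fell by 1.67 without wild-type libraries 1 and 3. The neuron markers *Gad1* and *Stmn2* also fell and were not highest in wild-type library 3. The part of the neuron markers in the fall of *Cacna1a* was not tested. *Cacna1e*, the R-type pore, was the most abundant of the family, with 8441, 6748, 5176 and 3952 against 4943, 4403, 5444 and 4680 counts. The mutants spread on both sides of the controls (0.32, adjusted p = 0.204). The L-type *Cacna1c* of smooth muscle had 335, 388, 585 and 378 against 565, 700, 894 and 452, and fell by 0.63 (adjusted p = 0.0408). Its log2 fold change was -0.43 with adjusted p = 0.231 without wild-type libraries 1 and 3. The T-type *Cacna1h* had 110 to 261 against 95.7 to 227 (-0.17, adjusted p = 0.696). Among 10 auxiliary subunits tested, *Cacng1*, known from skeletal muscle, had 35.4, 17.6, 23.2 and 31.3 against 8.27, 2.81, 6.04 and 9.47 and rose by 2.00 (adjusted p = 0.00207). *Cacnb1* fell by 1.21. *Cacng7*, an auxiliary subunit of AMPA receptors, had 60.6 to 103 counts against 88.4 to 219 (-0.69, adjusted p = 0.0875).

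Sodium channel genes gave 3 rises and 3 falls among 6 pore-forming subunits, against 21.5% and 22.9% of all genes. Of these, 3 were DE upward and 1 downward, against 5.9% and 8.05% of all genes. *Scn11a*, of pain-sensing neurons, had 54.3, 37.5, 35.4 and 67.7 against 11, 2.81, 12.9 and 11.6 and rose by 2.33 (SE 0.41, adjusted p = 0.00108). It remained scarce, at 0.277 ± 0.0868 RPKM in the mutant. *Scn4a*, of skeletal muscle, had 365, 405, 819 and 895 against 144, 209, 309 and 381 and rose by 1.26 (SE 0.35, adjusted p = 0.015), with one mutant library below the highest control and adjusted p = 0.0807 without wild-type libraries 1 and 3. The neuronal *Scn3a*, *Scn2a* and *Scn8a* had log2 fold changes of -1.30, -0.89 and -0.57, all falls. Among auxiliary subunits, *Scn3b* fell by 0.91, while *Scn2b* (-0.41, adjusted p = 0.414) and *Scn4b* (-0.83, adjusted p = 0.0661) did not pass.

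Hyperpolarization-activated channels carry the pacemaker current of heart and brain. *Hcn2* (ENSMUSG00000020331, chr10:79716634-79736108, plus strand) had 145, 208, 271 and 95.5 counts against 1312, 1256, 853 and 1035. Each mutant library was far below each control, and wild-type library 3, which had the highest neuron marker sum, was the lowest control. The part of the neuron markers in the fall of *Hcn2* was not tested. The red blood cell markers, all 5 of which fell, summed to 259, 334, 358 and 109 RPKM in mutant and 1161, 1047, 668 and 694 in wild-type libraries, which is the same order of the 8 libraries as that of *Hcn2*, and their part in its fall was not tested. It fell by 2.63 (6.21-fold; SE 0.28, adjusted p = 5.77e-05), and fell by 2.65 without wild-type libraries 1 and 3. In RPKM *Hcn2* went from 11.8 ± 2.23 to 1.90 ± 0.805, the largest loss in level of any channel gene. *Hcn4* had a log2 fold change of -0.52 (adjusted p = 0.0542) and *Hcn3* of -1.06 (adjusted p = 0.0646).

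**Figure D4:**
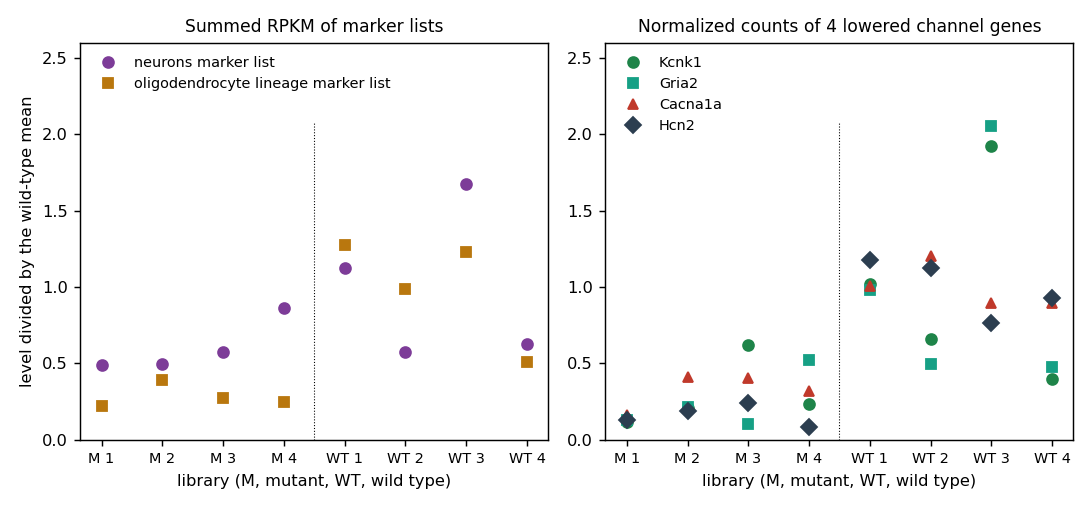
Levels in each library divided by the wild-type mean. On the left are the summed RPKM of the neuron and oligodendrocyte lineage markers and on the right the normalized counts of 4 channel genes that fell. *Kcnk1* and *Gria2* peak in wild-type library 3, as the neuron marker sum does, and *Cacna1a* and *Hcn2* do not. Single neuron markers differ in this. *Stmn2* (817, 637, 741 and 805 counts in wild-type libraries 1 to 4) and *Gad1* (176, 162, 181 and 191) also fell and do not peak in library 3.

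Ligand-gated channels comprised 28 genes, of which 25 were tested. Of these 5 rose and 7 fell, against 21.5% and 22.9% of all genes. Among glutamate receptors, *Grin2a* (ENSMUSG00000059003, chr16:9567898-9995560, minus strand) encodes an NMDA receptor subunit that needs the subunit of *Grin1* to form a channel. It had 619, 161, 123 and 344 counts in mutant and 11, 3.75, 0.862 and 6.31 in wild-type libraries. This was the largest rise of all channel genes, 5.81 on the log2 scale (56.2-fold; SE 0.68, adjusted p = 1.05e-04), from a wild-type level of 0.0103 ± 0.00812 RPKM to 0.587 ± 0.426. *Grin1* had 12.6, 11, 9.95 and 28.7 counts against 34.0, 12.2, 60.4 and 29.5 (-1.10, adjusted p = 0.0968). *Grin2b*, the other main partner in the young brain, had too few reads to test. *Grik2*, a kainate receptor subunit, had 193, 172, 148 and 175 counts against 48.7, 26.3, 109 and 30.5. It rose by 1.67 (SE 0.38, adjusted p = 0.00528), and by 2.62 without wild-type libraries 1 and 3, its highest control being wild-type library 3.

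Of the 13 glutamate receptor genes tested, 2 rose, 4 fell and 7 did neither. Thus 15.4% rose and 30.8% fell, against 21.5% and 22.9% of all genes. *Grik5*, the most abundant of the family, had 178, 163, 187 and 155 counts against 284, 265, 354 and 283. All mutants were lower, and it fell by 0.80 (SE 0.13, adjusted p = 7.8e-04). *Grik3* had 8.84, 7.72, 6.63 and 6.08 against 47.8, 51.6, 68.1 and 29.5 and fell by 2.75. *Gria2*, which makes AMPA receptors impermeable to calcium, had 21.5, 35.3, 16.6 and 86.8 against 163, 82.5, 342 and 78.9. The groups overlapped, and it fell by 2.02 (adjusted p = 0.0179), with a log2 fold change of -0.96 and adjusted p = 0.233 without wild-type libraries 1 and 3. *Gria4* had 16.4 to 28.7 against 51.5 to 141 and fell by 1.86 (adjusted p = 0.00144), with no overlap.

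GABA-A receptor genes were mostly absent from the set, and 3 were tested. *Gabre* had 241, 121, 214 and 294 counts against 44.1, 45.0, 64.7 and 83.1, all mutants being higher, and rose by 1.88 (SE 0.29, adjusted p = 5.84e-04). *Gabrb1* had a log2 fold change of -0.08 (adjusted p = 0.821). Among nicotinic receptors, *Chrna4*, of neurons, fell by 2.42, with 1.26 to 4.41 counts against 11.6 to 25.9. *Chrnb1*, of the muscle receptor, was among the 6 most abundant channel genes in both groups, with 847, 1011, 819 and 760 counts against 815, 742, 605 and 784 (0.22, adjusted p = 0.148).

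**Figure D5:**
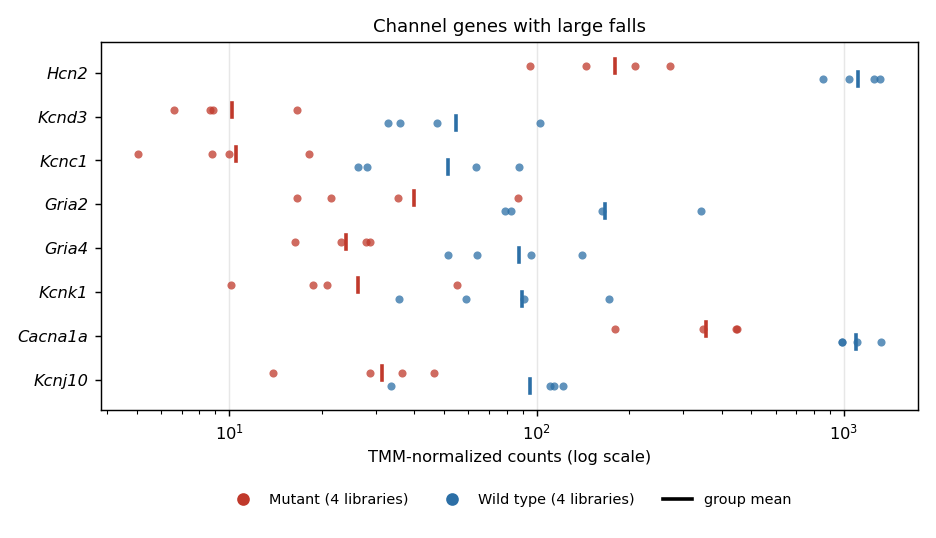
TMM-normalized counts (log scale) of 8 channel genes with large falls among DE genes that averaged at least 50 counts in the wild type, 1 point per library and a bar at each group mean. *Hcn2* and *Cacna1a* have the highest wild-type means, and *Gria2*, *Kcnk1* and *Kcnj10* overlap between groups.

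ATP-gated channels admit sodium and calcium when ATP leaks from or is released by cells, and *P2rx4* is the one linked to the response of ECs to flow. *P2rx4* had 412, 374, 396 and 449 counts against 278, 236, 264 and 225, without overlap, and rose by 0.70 (SE 0.11, adjusted p = 6.3e-04). *P2rx7* (ENSMUSG00000029468, chr5:122643911-122691432, plus strand), best known from macrophages and microglia, had 811, 589, 634 and 768 against 305, 274, 480 and 306 and rose by 1.04 (SE 0.18, adjusted p = 0.00113). Its highest control was wild-type library 3, also the highest in microglia and macrophage markers, none of whose 8 genes rose or fell. The part of these cells in the values of *P2rx7* was not tested. Both genes lie 16.1 kb apart on chromosome 5, and the first of the 2 promoter windows of *P2rx7* is printed above with an AP-1 match. *P2rx5* fell by 0.53, while *P2rx1* (-0.75, adjusted p = 0.0735) and *P2rx2* (0.20, adjusted p = 0.779) did not pass.

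None of the 12 chloride channel, exchanger and anoctamin genes was DE, against 14.0% of all genes tested, and 2 rose and 3 fell. The ClC family includes exchangers of endosomes and lysosomes. *Clcn4* had 2846, 2934, 2807 and 2748 counts against 3253, 3260, 3053 and 3252, and fell by 0.18 (adjusted p = 0.0274), a call lost under 9 of 17 alternative analyses. *Clcn3* had 3093, 3195, 2526 and 2612 against 3637, 3486, 3289 and 3979 and fell by 0.33 (adjusted p = 0.0156), *Clcn6* fell by 0.22 and *Clcn5* rose by 0.40. *Clcn7* and *Clcn2* had log2 fold changes of -0.16 and 0.25 and did not pass. Of the anoctamins, *Ano6*, a scramblase that exposes phosphatidylserine, had 5966, 5991, 5486 and 5971 counts against 5784, 5813, 4772 and 5579 (0.09, adjusted p = 0.359). *Ano1*, the calcium-activated chloride channel of smooth muscle, pericytes and ECs, had 666, 791, 863 and 1268 against 509, 668, 733 and 342. Its rise of 0.67 (adjusted p = 0.0467) overlapped between the groups and was lost under 11 of 17 alternatives.

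Neighbouring genes did not always move together. Within 200 kb of each other lay 16 pairs of channel genes, 1 of them overlapping, and in 5 of the other pairs both genes rose or fell. The directions matched in 4 of these, *P2rx7* and *P2rx4* (higher) and *Scn3a* and *Scn2a* (lower) among them. The fifth, *Kcna5* (higher) and *Kcna6* (lower), stand 173 kb apart on chromosome 6. The channel genes tested were long, with a median span of 52.5 kb against 19 kb over all genes tested, and the DE ones upward spanned 2.862 to 715 kb and downward 5.741 to 514 kb.

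Other genes that move ions or couple ECs were counted from a separate list of 46, with 43 tested. Of these 13 rose and 9 fell (30.2% and 20.9%, against 21.5% and 22.9% of all genes), with a median log2 fold change of 0.08. *Trpc6*, a calcium-permeable channel opened by diacylglycerol, had 1517, 1575, 1268 and 2124 counts against 49.6, 47.8, 81.1 and 26.3 and rose by 4.96 (SE 0.28, adjusted p = 1.4e-06). *Orai2* and *Stim1* of store-operated calcium entry rose by 1.42 and 0.48, and *Itpr1*, the calcium release channel of the endoplasmic reticulum, by 0.49. *Gja1*, a gap junction protein, rose by 0.80 and *Lrrc8c*, of volume-regulated anion channels, by 0.83. Among the falls were the sodium pump subunit *Atp1b1* (-1.33) and the calcium pump of the endoplasmic reticulum *Atp2a3* (-0.60).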

How the data were processed

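ECs from P9 brains of 4 mutant and 4 wild-type pups were analysed by RNA sequencing of poly(A) RNA. The authors used Trimmomatic 0.36 for trimming and STAR 2.5.2b for mapping to GRCm38, and deposited unnormalized counts for 49315 genes. The counting program, its annotation and its use of strand are not given in the sources used here. The authors also deposited a normalized signal for 16889 genes, the counts divided by DESeq2 size factors. Multiplied back, 100% of its values were whole reads within 0.001, so both sets hold the same counts, and it served only to select genes.

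Counts were scaled by TMM, filtered with filterByExpr (minimum count 10) and tested with glmQLFit and glmQLFTest (R 4.3.3, edgeR 4.0.16, limma 3.58.1) without covariates, adjusting over 16887 genes by Benjamini-Hochberg. Normalized counts are TMM-scaled to the mean library size, and RPKM uses the deposited exon length. On simulated data with 200 of 16887 genes changed 4-fold, 197 changed and 3 unchanged genes were called. The 200 were drawn from genes above a minimum mean level and are a far smaller share than the 44.4% that passed in the data. The recovery of scarcer genes, some channel genes among them, was thus not measured. Genes given with full values were the 10 largest rises and falls among DE genes averaging at least 50 counts in the higher group, the most abundant gene of each family, and a list of 12 channel genes known in ECs. Some channel genes are counted but not reported here by name. Other genes named were chosen with their values in view. The channel genes, families and lists were chosen with earlier results of these data known. Alternatives were DESeq2 1.42.0, other normalizations and filters, blocks for replicate number and label prefix, and leaving out libraries. Pups are separate animals, so the spread is between pups. Of the 49315 genes, 48970 had a symbol in GENCODE. The droplet PCR and staining of the study were not analysed here.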

Additional observations from a re-analysis of the deposited data

Results flagged for a closer look

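Values were looked at for a library far from the other 3 of its group, a gap above the 95% critical value of Dixon's test. Among the 82 groups of 4 of 41 named channel genes, 6 stood out, and chance flags about 1 in 20 groups, or 4.1 here. *Kcnj10* had 33.7 normalized counts in wild-type library 4 against 111 to 122 in the others. *Clcn4* had 3053 in wild-type library 3 against 3252 to 3260. *P2rx7* had 480 in wild-type library 3 against 274 to 306. *Ano6* had 5486 in mutant library 3 against 5966 to 5991. *Kcnk2* had 37.3 in mutant library 4 against 30.9 to 31.6. *Kcnq1* had 1355 in mutant library 1 against 791 to 873.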

How the results depend on the processing

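Each result was recomputed under 17 alternatives. Of 708 values for 42 single genes, 651 kept their direction and side of the threshold, 48 lost and 3 gained significance and 6 changed sign, and 25 genes kept both throughout. The sign changed for *Kcne4* without mutant library 2 (-0.016) or wild-type library 4, with a range of -0.016 to 0.27 on leaving out single libraries, for *Kcnk2* without wild-type library 3 (-0.45 to 0.040) and for *Cacna1h* without mutant library 4 (-0.49 to 0.0052). With wild-type libraries 1 and 3 left out together, an alternative chosen after seeing the data, it changed for *Kcnk2* (0.13) and *Cacna1h* (0.012).

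Genes DE upward numbered 15 to 18 and downward 18 to 31 with each library left out in turn, and 26 rises and 35 falls became 22 to 28 and 25 to 42. With wild-type libraries 1 and 3 left out, 11 were DE downward and 14 fell. With only genes averaging at least 50 counts tested, 9 were DE downward and 21 fell, since 70 channel genes and not 127 were tested. Counts per family are small and moved more often. With wild-type libraries 1 and 3 left out, DE genes numbered 1 upward in K2P channels, and downward 0 among potassium auxiliary, inward rectifier, K2P and calcium auxiliary genes and 2 among voltage-gated potassium genes. Among genes averaging at least 50 counts they numbered 0 upward among potassium and calcium auxiliary genes and 1 each among calcium- and sodium-activated potassium and sodium pore genes. Downward there were 0 among potassium auxiliary, voltage-gated potassium, sodium pore, GABA-A and nicotinic genes and 1 among inward rectifiers. With no filter there were 0 upward among potassium auxiliary and 2 downward among calcium auxiliary genes, and with the genes of the authors' normalized set 2 downward among calcium auxiliary and 2 among GABA-A genes. Upper quartile normalization, which moved the median of all genes to -0.09, left 0 P2X genes upward, and the block by label prefix gave 1 anoctamin downward.

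Leaving out libraries one by one, the range upward was 0 to 1 for potassium auxiliary, K2P and P2X genes. Downward it was 0 to 2 for potassium auxiliary, 1 to 3 for calcium- and sodium-activated potassium, 2 to 5 for inward rectifier and 2 to 6 for glutamate receptor genes. It was 1 to 2 for calcium pore, sodium pore, hyperpolarization-activated, GABA-A and nicotinic genes, 1 to 4 for calcium auxiliary genes, and 0 to 1 for K2P, sodium auxiliary and anoctamin genes.

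The study matched controls to mutants within litters, but the labels do not say which pups shared one, so the main comparison has no block. Libraries with the same replicate number deviated from their group means with correlations of 0.20, 0.21, 0.29 and 0.02. The prefix of the label joins libraries 1 and 2 of both groups, and separately libraries 3 and libraries 4. The mutant and wild-type libraries that share the first prefix correlated at 0.17 to 0.25, in which mutant library 2 was closest to wild-type library 1. The highest correlation of any mutant and wild-type pair, 0.38, was that of mutant library 4 and wild-type library 3, which share neither number nor prefix. Whether the prefix marks a litter is not stated. With it as a block, 16 channel genes were DE upward and 24 downward, and 26 rose and 39 fell (over all genes 4182 rose and 4428 fell, against 3631 and 3873 without it). With the replicate number as a block, 16 genes were DE upward and 25 downward, with 2 hyperpolarization-activated genes and 1 anoctamin downward. Depth limits the 85 genes outside the normalized set and the 9 not tested, for which no difference can be read.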
